A study of Mus musculus with 4 samples.

Results

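Tumour necrosis factor (TNF) signalling and the transcription factor NF-kappaB were followed through 10 genes in whole testes of control and Mps1sKO mice at postnatal day 10 (P10). The genes are the ligand *Tnf*, its receptors *Tnfrsf1a* and *Tnfrsf1b*, the NF-kappaB subunit genes *Nfkb1*, *Nfkb2*, *Rela* and *Relb*, and *Bcl3*, *Nfkbia* and *Vcam1*, which are feedback regulators or targets of the pathway. They were taken by name from the 55820 loci of the expression table, and each name had 1 row. All animals were C57BL/6J males. In Mps1sKO mice, Cre recombinase driven by the *Stra8* promoter in germ cells removed a floxed part of *Mps1* (also named *Ttk*), which encodes a kinase of the spindle checkpoint. The labels name the other group only as control, without its floxed or Cre alleles. Each group had 2 libraries, described as biological replicates, and whether a library stands for a single mouse is not stated. Cre acts in germ cells, while the RNA came from all cells of the testis.

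TNF is a cytokine made mostly by activated macrophages, and in the testis germ cells are a known source as well. TNFR1, the product of *Tnfrsf1a*, is made by most cell types and carries a death domain. From it, adaptors and kinases lead either to NF-kappaB, which turns on survival and inflammatory genes, or to cell death. TNFR2, the product of *Tnfrsf1b*, has no death domain and is mainly found on immune and endothelial cells. NF-kappaB dimers are held in the cytoplasm by IkappaB proteins such as the product of *Nfkbia*, and *Nfkbia* is itself an NF-kappaB target, which makes a negative feedback loop.

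Counts per library summed to between 23311689 and 28607746, so that 3 counts, the limit that a count of 0 allows, were 0.1049 to 0.1287 CPM (counts scaled to a common library size). Such limits cover counting error only. Levels below are CPM after TMM scaling, and each difference is Mps1sKO relative to control on the log2 scale from edgeR's quasi-likelihood test, with its standard error (SE). Of all loci, 20561 had enough counts to be tested. The targeted gene *Ttk* had 27.85 and 32.59 CPM in control, against 13.03 and 12.17 in the Mps1sKO libraries. Its log2 fold change was −1.26 (SE 0.129, adjusted p = 0.0461 from edgeR), in counts that also cover the exons outside the floxed part. Its adjusted p was above 0.05 with limma-voom (0.0745), with at least 10 counts in every library (0.0573) and with the replicate block (0.224), at log2 fold changes of −1.26, −1.27 and −1.26.

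NF-kappaB binds kappaB sites, so the 250 bases before the RefSeq start of each gene (GRCm38.p6) were searched on both strands for the 10-base kappaB consensus. Of the 10 genes 7 had a window, namely *Tnf*, both receptors, *Nfkb2*, *Rela*, *Bcl3* and *Nfkbia*, and 2 of them, *Nfkbia* and *Nfkb2*, held a match (28.6%). Among all genes with a window, 1204 of 27025 (4.46%) held one. *Nfkbia* is shown because it is the classical feedback target. Its 250 bases, chr12:55492648-55492897 on the minus strand, hold 1 match, 29 bases before the start, here in capitals.

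*Nfkbia*: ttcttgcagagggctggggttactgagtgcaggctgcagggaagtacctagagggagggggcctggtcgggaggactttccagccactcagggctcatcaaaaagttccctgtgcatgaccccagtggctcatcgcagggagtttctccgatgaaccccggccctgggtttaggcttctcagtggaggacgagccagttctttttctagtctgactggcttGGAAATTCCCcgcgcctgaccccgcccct

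The ligand gene *Tnf* is shown beside it for comparison, since it had no match in chr17:35202008-35202257 on the minus strand and is therefore all in lower case. This says only that the letters of the consensus are not in that window.

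*Tnf*: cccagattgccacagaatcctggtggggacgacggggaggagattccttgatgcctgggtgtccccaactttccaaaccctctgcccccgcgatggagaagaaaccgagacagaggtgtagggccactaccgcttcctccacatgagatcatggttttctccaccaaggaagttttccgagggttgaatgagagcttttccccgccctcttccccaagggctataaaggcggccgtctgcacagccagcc

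*Nfkb2*, on the plus strand, has several RefSeq starts and had matches in 3 windows. The stretches around them, again with the matches in capitals, are chr19:46304689-46304718 and chr19:46304716-46304736 before the first start, chr19:46305449-46305478 before the next and chr19:46305695-46305724 before the last. The first stretch holds 2 matches that start 1 base apart, of which the first, GGGAATTCCC, reads the same on both strands.

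*Nfkb2*, first start: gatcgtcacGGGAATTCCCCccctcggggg
*Nfkb2*, first start, nearer: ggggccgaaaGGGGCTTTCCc
*Nfkb2*, next start: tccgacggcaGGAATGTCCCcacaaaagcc
*Nfkb2*, last start: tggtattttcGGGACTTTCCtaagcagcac

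Of the 10 genes, the ligand was the rarest. *Tnf* (ENSMUSG00000024401, chr17:35199381-35202007, minus strand of GRCm38, as are all gene positions here) had 1 and 2 counts in control, against 13 and 9 in the Mps1sKO libraries. Both Mps1sKO libraries were above both controls, but the control values were at or under the limit of 3 counts. The control mean was 0.05324 ± 0.0228 CPM and the Mps1sKO mean was 0.4484 ± 0.159 CPM (SD, n = 2 for each mean). Over each group, 3 counts stood against 22, a ratio of 8.19 after scaling by the TMM-adjusted library sizes. Its exact 95% interval, from 2.46 to 42.7, covers counting error only and not the spread between mice. edgeR's filter left *Tnf* out of the test. Without the filter its log2 fold change was 2.94 (unadjusted p = 0.000625, adjusted p = 0.0542 from edgeR), and in DESeq2 the unadjusted p was 0.0296 with an adjusted p of NA. The fit without the filter also gave very small p to genes with a wide spread between replicates. For *Junb*, whose groups overlapped, the unadjusted p was 1.32e-09 without the filter and 0.0407 with it (both from edgeR). The p of *Tnf* from that fit may therefore be too small.

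The neighbours of *Tnf* in the genome are *Lta* and *Ltb*, which encode the related ligands lymphotoxin alpha and beta. *Lta* had 7 and 9 counts in control, against 9 and 10 in Mps1sKO libraries and was also left out by the filter. *Ltb* had 45 and 39 counts in control, against 30 and 39 in Mps1sKO libraries, with a log2 fold change of −0.13 (SE 0.270). Its groups overlapped.

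The study measured *Tnf* and *Tnfrsf1a* by qPCR as well, in assays not analysed here, and the primers show which part of each transcript those assays read. For *Tnf* the pair spans 97 bases of coding sequence from exon 2 to exon 4 of transcript Tnf-201 (chr17:35200560-35201128) and matched 1 of 2 annotated transcripts. For *Tnfrsf1a* it spans 122 bases of coding sequence from exon 5 to exon 7 of Tnfrsf1a-201 (chr6:125358104-125360725) and matched 3 of 6 transcripts. Neither pair matched a transcript of another gene.

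*Tnf* forward: atggcctccctctcatcagt
*Tnf* reverse: tttgctacgacgtgggctac
*Tnfrsf1a* forward: agagaaagtgagtgcgtccc
*Tnfrsf1a* reverse: aacagcaccgcagtacctga

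Of the receptors, *Tnfrsf1a* was higher at the relaxed cut-offs (a fold above 1.2 and an unadjusted p below 0.05) and *Tnfrsf1b* was not, and the difference between their changes was not tested. *Tnfrsf1a* (ENSMUSG00000030341, chr6:125349362-125362484, plus strand) had 81.21 and 68.06 CPM in control, against 96.84 and 92.58 in the Mps1sKO libraries. The groups did not overlap, and control replicate 2 was the lowest of the 4. The control mean was 74.64 ± 9.30 CPM and the Mps1sKO mean was 94.71 ± 3.01 CPM (SD, n = 2 for each mean). This is a log2 fold change of 0.34 (SE 0.109, 95% interval 0.09 to 0.60, unadjusted p = 0.0141, adjusted p = 0.497 from edgeR), or 1.27-fold. Without control replicate 2 it was 0.22 (unadjusted p = 0.173 from edgeR).

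*Tnfrsf1b* (ENSMUSG00000028599, chr4:145213463-145246870, minus strand) had 5.94 and 6.76 CPM in control, against 8.85 and 4.89 in the Mps1sKO libraries. The Mps1sKO libraries lay on either side of both controls, so the groups overlapped. The log2 fold change was 0.11 (SE 0.271, 95% interval −0.53 to 0.74, unadjusted p = 0.708 from edgeR). The value rested on single libraries, since it was −0.38 without Mps1sKO replicate 1 and 0.48 without Mps1sKO replicate 2 (unadjusted p = 0.115 and 0.0359 from edgeR). Deposited FPKM are per length, counted over all annotated exonic bases of a gene, and were used to compare levels of different genes. In FPKM, *Tnfrsf1a* was 20.1 and 14.8 times the level of *Tnfrsf1b* in control and 16.1 and 27.9 times in Mps1sKO libraries. The ratio overlapped between the groups.

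**Figure D1:**
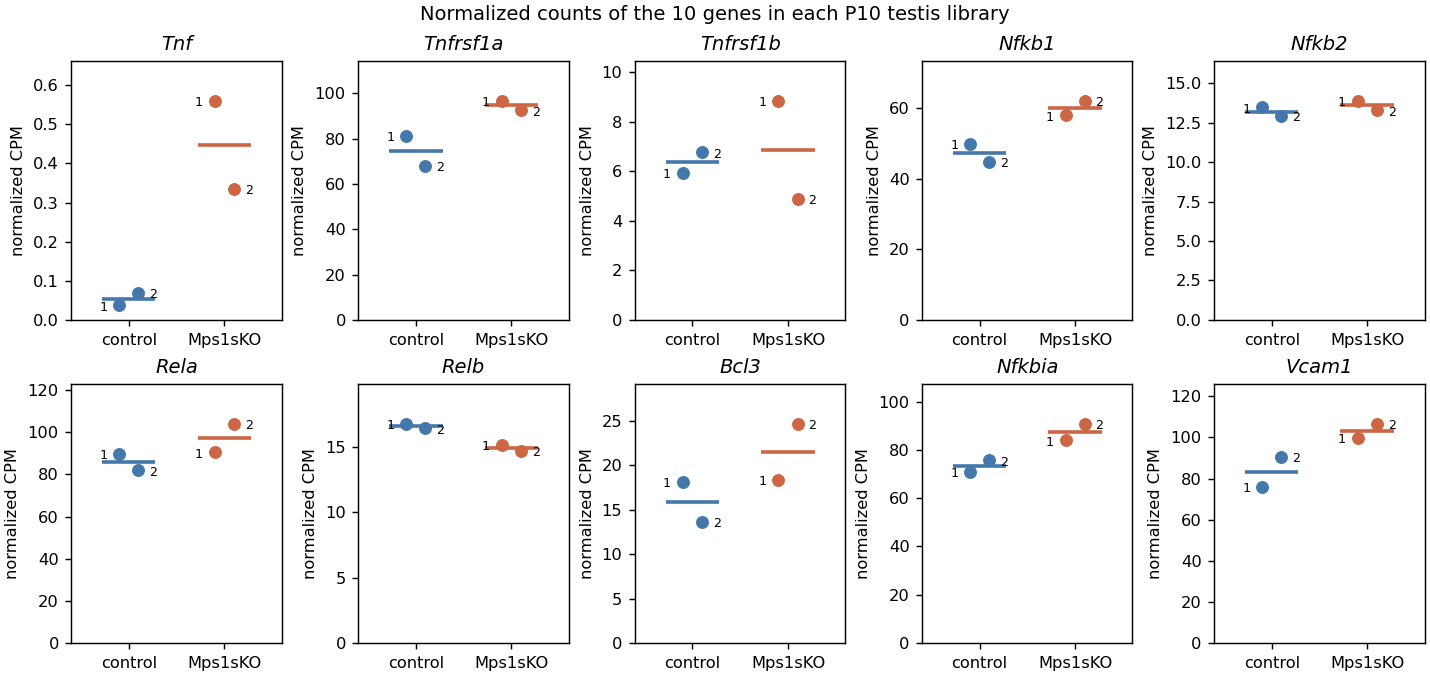
Normalized counts (CPM, linear axes from 0) of each of the 10 genes in the 2 control and 2 Mps1sKO libraries. Points are libraries with their replicate number and bars are group means. For *Tnf*, *Tnfrsf1a*, *Nfkb1*, *Rela*, *Bcl3*, *Nfkbia* and *Vcam1* both Mps1sKO points lie above both control points, though only barely for *Rela* and *Bcl3*. For *Tnfrsf1b* the Mps1sKO points, at 8.85 and 4.89, lie on either side of the controls.

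Among the NF-kappaB subunits, *Nfkb1* was higher at these cut-offs and *Nfkb2*, *Rela* and *Relb* were not. *Nfkb1* (ENSMUSG00000028163, chr3:135584655-135691547, minus strand) encodes p105, the precursor of p50. It had 49.83 and 44.83 CPM in control, against 57.96 and 62.13 in the Mps1sKO libraries. The groups did not overlap. The mean went from 47.33 ± 3.54 to 60.05 ± 2.95 CPM (SD, n = 2 for each mean). The log2 fold change was 0.34 (SE 0.100, 95% interval 0.11 to 0.58, unadjusted p = 0.00956, adjusted p = 0.494 from edgeR). This was the smallest unadjusted p among the tested genes of the group. Without control replicate 2 the log2 fold change was 0.27 (unadjusted p = 0.104 from edgeR).

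*Rela* (ENSMUSG00000024927, chr19:5637483-5648130, plus strand) encodes p65, the usual partner of p50 and the subunit that activates transcription. It had 89.86 and 81.96 CPM in control, against 90.46 and 104.1 in the Mps1sKO libraries. The groups were next to each other, with Mps1sKO replicate 1 barely above control replicate 1. This gave a log2 fold change of 0.18 (SE 0.105, 95% interval −0.06 to 0.42, unadjusted p = 0.127 from edgeR), and it depended on single libraries. Without Mps1sKO replicate 1 it was 0.28 (unadjusted p = 0.0333), without Mps1sKO replicate 2 it was 0.075 (unadjusted p = 0.530) and without control replicate 2 it was 0.11 (unadjusted p = 0.482, all from edgeR). The FPKM ratio of *Rela* to *Nfkb1* was 7.08 and 7.18 in control and 6.13 and 6.58 in Mps1sKO libraries.

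*Nfkb2* and *Relb* encode the p100 precursor of p52 and its partner RelB, the dimer of the non-canonical pathway. *Nfkb2* (ENSMUSG00000025225, chr19:46304320-46312385, plus strand), with the kappaB matches printed above, had 13.48 and 12.93 CPM in control, against 13.90 and 13.28 in the Mps1sKO libraries. The groups overlapped, with a log2 fold change of 0.041 (SE 0.127, 95% interval −0.26 to 0.34, unadjusted p = 0.755 from edgeR). *Relb* (ENSMUSG00000002983, chr7:19606217-19629438, minus strand) had 16.78 and 16.43 CPM in control, against 15.15 and 14.70 in the Mps1sKO libraries. It was the 1 tested gene of the 9 whose Mps1sKO libraries both lay below both controls, but the log2 fold change of −0.15 did not pass the test (SE 0.120, 95% interval −0.43 to 0.13, unadjusted p = 0.237 from edgeR). The FPKM ratio of *Nfkb1* to *Nfkb2* was 1.41 and 1.32 in control and 1.59 and 1.78 in Mps1sKO libraries, and that of *Rela* to *Relb* was 6.77 and 6.31 in control and 7.55 and 8.95 in Mps1sKO libraries. For both ratios, and for that of *Rela* to *Nfkb1*, the groups did not overlap. With 2 libraries in each group this is common. Among single loci, 20.3% were separated upwards and 21.1% downwards, and the share for ratios was not computed.

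Of the feedback and target genes, *Bcl3* and *Vcam1* were higher at the relaxed cut-offs and *Nfkbia* missed the fold. *Bcl3* (ENSMUSG00000053175, chr7:19808462-19822770, minus strand) encodes a nuclear IkappaB protein that binds p50 and p52 dimers. It had 18.16 and 13.63 CPM in control, against 18.38 and 24.70 in the Mps1sKO libraries. Control replicate 1 and Mps1sKO replicate 1 were almost level, and Mps1sKO replicate 2 stood above all others. The log2 fold change was 0.44 (SE 0.189, 95% interval 0.002 to 0.882, unadjusted p = 0.0494, adjusted p = 0.537 from edgeR), the largest among the 9 tested genes. It fell to 0.25 without control replicate 2 (unadjusted p = 0.226) and to 0.21 without Mps1sKO replicate 2 (unadjusted p = 0.277, both from edgeR), so it depended on either library.

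*Nfkbia* (ENSMUSG00000021025, chr12:55489410-55492647, minus strand) encodes IkappaBalpha. It had 70.89 and 75.72 CPM in control, against 84.11 and 90.94 in the Mps1sKO libraries. The groups did not overlap, and the mean went from 73.31 ± 3.42 to 87.53 ± 4.83 CPM (SD, n = 2 for each mean). The log2 fold change was 0.26 (SE 0.093, 95% interval 0.04 to 0.47, unadjusted p = 0.0267, adjusted p = 0.510 from edgeR). This is 1.194-fold, just under the cut-off. Relative to *Rela*, which IkappaBalpha retains in the cytoplasm, the FPKM ratio was 1.51 and 1.76 in control and 1.77 and 1.67 in Mps1sKO libraries, and the groups overlapped.

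*Vcam1* (ENSMUSG00000027962, chr3:116109949-116129688, minus strand) encodes a surface molecule that binds leukocyte integrins. It had 75.90 and 90.67 CPM in control, against 99.82 and 106.7 in the Mps1sKO libraries. The groups did not overlap, and control replicate 1 was the lowest. This gave a log2 fold change of 0.31 (SE 0.110, 95% interval 0.06 to 0.57, unadjusted p = 0.0234, adjusted p = 0.506 from edgeR). Without control replicate 1 it was 0.19 (unadjusted p = 0.245) and without Mps1sKO replicate 2 it was 0.26 (unadjusted p = 0.0629, both from edgeR).

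Over the 9 tested genes, 8 had a log2 fold change above 0 and 1 below, with a median of 0.26, against 0.00027 over all tested loci. At the relaxed cut-offs 4 were higher, namely *Tnfrsf1a*, *Nfkb1*, *Bcl3* and *Vcam1*, and 0 were lower. Over all tested loci, 3.09% were higher and 4.95% lower at these cut-offs. In 6 of the 9 both Mps1sKO libraries lay above both controls and in 1 they lay below, where the shares over all tested loci were 20.3% and 21.1%. At an adjusted p below 0.05, 0 of the 9 passed with edgeR, with DESeq2 and with limma-voom, against 0.0292% of all tested loci with edgeR. An unadjusted p below 0.05 was reached by 5 of them with edgeR and by 6 of the 10 with DESeq2, against 9.3% of the loci tested with edgeR and 3.2% of those tested with DESeq2. The DESeq2 share is over 35262 loci, which are all those with any count. It is lowered by loci too sparse for edgeR's filter. *Tnf*, *Tnfrsf1a*, *Nfkb1*, *Bcl3* and *Vcam1* are among the genes that the study itself listed for TNF signalling from these libraries, so these counts are not independent evidence of a direction. An exact permutation test of single genes cannot reach significance here, since with 2 libraries in each group its p is never under 0.333.

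**Figure D2:**
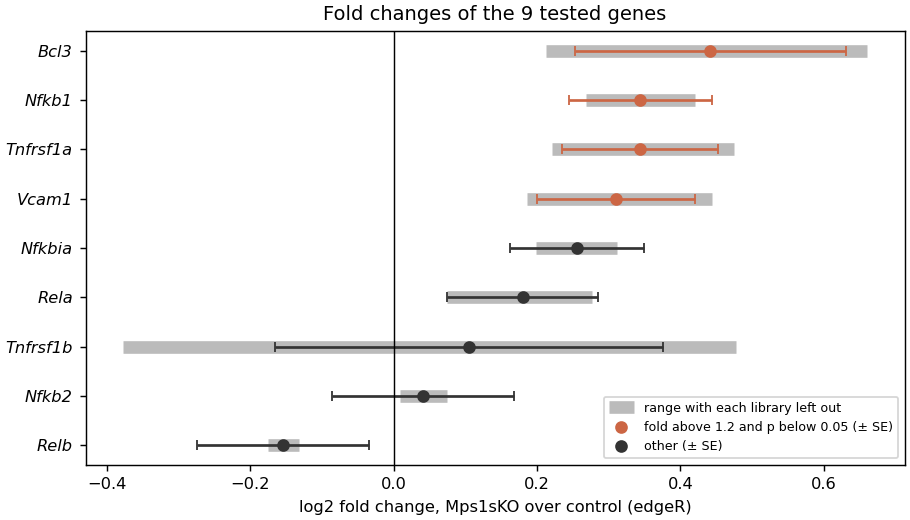
Log2 fold change (Mps1sKO over control, edgeR) of the 9 tested genes, with points and bars for the value ± SE and grey bands for the range when single libraries are left out. The band of *Tnfrsf1b* runs from −0.38 to 0.48. All other bands stay above 0, also that of *Nfkb2*, except the band of *Relb*, which stays below 0.

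In the order of their levels per length, *Nfkbia* was first, with a mean of 49.69 FPKM over the 4 libraries (43.65 to 56.37). *Tnfrsf1a* followed at 32.51 FPKM (26.10 to 37.20) and *Rela* at 29.66 (26.51 to 33.81), and the ranges of these neighbours overlapped. *Vcam1*, at 10.46 FPKM, and *Bcl3*, at 7.52, also overlapped, as did *Nfkb1*, at 4.43, and *Relb*, at 4.04. *Nfkb2* at 2.91 FPKM, *Tnfrsf1b* at 1.72 and *Tnf* at 0.152 each lay apart from their neighbours. In this unit *Nfkbia*, *Tnfrsf1a* and *Rela* ranked highest of the group, and the ligand lowest. The order depends on the length used, which counts all annotated exonic bases, such as 12061 for *Nfkb1* and 8870 for *Vcam1*. Which transcripts were present was not tested. In CPM, which is not per length, *Vcam1* had means of 83.28 in control and 103.3 in Mps1sKO libraries. Those of *Tnfrsf1a* were 74.64 and 94.71, and those of *Nfkbia* were 73.31 and 87.53.

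**Figure D3:**
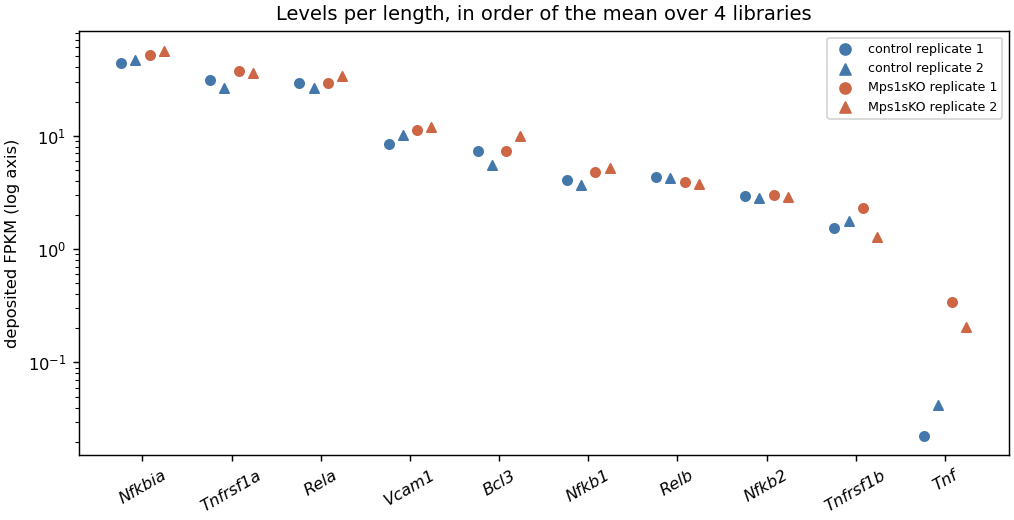
Deposited FPKM (log axis) of the 10 genes in each library, ordered by the mean over the 4 libraries. Colours mark the groups and symbols the replicates. *Nfkbia*, at 43.65 to 56.37, lies at the top, and *Tnf*, at 0.02246 to 0.3406, lies below all others and has the widest spread.

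A further 76 genes of the pathway were followed by role, and 61 of them were tested. Of these, 34 were above 0 and 27 below, with a median log2 fold change of 0.027. At the relaxed cut-offs 2 were higher (3.28%) and 4 lower (6.56%), shares near those over all tested loci, and 0 had an adjusted p below 0.05 with edgeR, with DESeq2 or with limma-voom, while 9 had an unadjusted p below 0.05 with edgeR, which 9.3% of all tested loci had. Both Mps1sKO libraries lay above both controls for 13 of the 61 and below for 9. Over all tested loci these shares were 20.3% and 21.1%. None of the 5 tested other ligands and shedding enzymes, the 10 receptor adaptors or the 11 kinases passed the cut-offs. *Ripk1*, a kinase of the receptor complex, *Tab1*, a partner of the kinase TAK1, and *Cflar*, an inhibitor of caspase-8, were named after their values were seen. They had log2 fold changes of 0.22, 0.21 and 0.22 and unadjusted p of 0.0406, 0.0486 and 0.0321 from edgeR, and missed the fold.

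Of the 12 ubiquitin enzymes and brakes on the pathway, *Nfkbiz* was higher and *Tnip2* lower (8.33% each, against 3.09% and 4.95% of all tested loci). *Nfkbiz*, which encodes the nuclear protein IkappaBzeta, had 13.26 and 13.21 CPM in control, against 15.58 and 16.90 in the Mps1sKO libraries, a log2 fold change of 0.30 (SE 0.126, unadjusted p = 0.0477 from edgeR). This call was lost with DESeq2 (unadjusted p = 0.112), library size only, no filter, at least 10 counts in every library, the replicate block (unadjusted p = 0.110) and on leaving out any library but Mps1sKO replicate 1. *Tnip2*, which encodes a partner of the deubiquitinase A20, had 36.69 and 40.98 CPM in control and 32.28 and 32.32 in Mps1sKO libraries, a log2 fold change of −0.27 (SE 0.103, unadjusted p = 0.0339 from edgeR). Its call was lost with DESeq2 (unadjusted p = 0.0801), with the replicate block (unadjusted p = 0.0920) and on leaving out any library but control replicate 1. The remaining NF-kappaB subunit gene, *Rel*, had a log2 fold change of −0.19 (unadjusted p = 0.223 from edgeR) and overlapping groups.

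Of 33 target genes 22 were tested, and *Mmp14* was higher (4.55%) while *Irf1*, *Junb* and *Ptgs2* were lower (13.6%). Over all tested loci the shares were 3.09% and 4.95%. *Mmp14*, which encodes a membrane-bound matrix protease, had 211.3 and 164.7 CPM in control, against 220.8 and 273.1 in the Mps1sKO libraries, a log2 fold change of 0.39 (SE 0.147, unadjusted p = 0.0288 from edgeR). It was 0.23 without control replicate 2 (unadjusted p = 0.172) and 0.23 without Mps1sKO replicate 2 (unadjusted p = 0.117), and its unadjusted p was 0.0562 with the replicate block (all from edgeR). The study listed this gene too for TNF signalling from these libraries. *Irf1*, an interferon regulatory factor gene, had 40.18 and 46.08 CPM in control and 35.48 and 33.10 in Mps1sKO libraries, a log2 fold change of −0.33 (SE 0.109, unadjusted p = 0.0168 from edgeR). It lost the call without control replicate 2 (−0.23), without Mps1sKO replicate 2 (−0.28) and with the replicate block (unadjusted p = 0.0520 from edgeR). *Junb*, which encodes an AP-1 subunit, had 7.95 and 22.54 CPM in control and 5.83 and 8.66 in Mps1sKO libraries. Its groups overlapped, and its log2 fold change of −1.07 was −0.13 without control replicate 2. It also lost the call without Mps1sKO replicate 1 (−0.82), with DESeq2 (unadjusted p = 0.160) and with limma-voom (unadjusted p = 0.0925). *Ptgs2*, which encodes cyclooxygenase-2, had 10 and 18 counts in control, against 5 and 2 in Mps1sKO libraries, a log2 fold change of −1.80 (SE 0.649, unadjusted p = 0.0255 from edgeR). It was −1.37 without control replicate 2 (unadjusted p = 0.207), −2.67 without Mps1sKO replicate 1 (unadjusted p = 0.0213) and −1.20 without Mps1sKO replicate 2 (unadjusted p = 0.167, all from edgeR), and DESeq2 gave an unadjusted p of 0.122. Among the 15 genes of the pathway that were not tested, no library had more than 10 counts, and 4 had 0 counts in all libraries.

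The kappaB consensus was found before the start of 20 of 64 of these genes with a window (31.2%), and of 11 of 29 target genes (37.9%). The 17 tested pathway genes with a match had a median of −0.020 on the log2 scale and the 36 without had one of 0.035. With a match, 0 were higher and 1 lower at the relaxed cut-offs, and without a match 1 was higher and 3 lower. Over all tested genes with a window, 3.64% of the 715 with a match were higher and 4.20% lower, compared with 3.02% and 5.21% of the 12500 without. Of the 10 genes, *Nfkbia* and *Nfkb2*, which hold the matches printed above, had log2 fold changes of 0.26 and 0.041.

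In RNA of whole testes, fewer cells of a type and less RNA per cell cannot be told apart. Markers of some cell types also differed between the groups, Sertoli cell markers mostly upwards and germ cell markers mostly downwards. Of 11 tested Sertoli cell markers all 11 were above 0, with a median of 0.37, and for 6 of them the groups overlapped. At the relaxed cut-offs 4 were higher (*Gata4*, *Inha*, *Ctsl* and *Dhh*, 36.4%, against 3.09% of all tested loci). The summed level of all 12 listed Sertoli markers was 3543 and 3048 CPM in control and 3958 and 4354 in Mps1sKO libraries, and the defining marker *Rhox5* had at most 1 count. Of 12 germ cell markers 11 were below 0 and 10 were lower (83.3%, against 4.95% of all tested loci). Their median was −0.46, with sums of 1432 and 1700 CPM in control and 1279 and 1011 in Mps1sKO libraries. In both lists 0 markers had an adjusted p below 0.05 with edgeR. With DESeq2 the adjusted p was 0.0264 for *Mael*, 0.00128 for *Tex101* and 0.00367 for *Stra8*. The part of these shifts in the values of the 10 genes was not tested. Against the mean log2 level of the Sertoli markers in the same library, a comparison chosen after the values were seen, the difference between the groups was 0.029 for *Tnfrsf1a*, 0.024 for *Nfkb1*, 0.118 for *Bcl3*, −0.065 for *Nfkbia* and −0.005 for *Vcam1*. It was −0.143 for *Rela*, −0.267 for *Tnfrsf1b*, −0.279 for *Nfkb2* and −0.474 for *Relb*. For *Tnfrsf1a* the values were −1.37 and −1.36 in control and −1.23 and −1.44 in Mps1sKO libraries, so the groups overlapped on this scale.

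Macrophages are the classical source of TNF. Of their 12 markers 0 passed the cut-offs, with a median of −0.13 and sums of 149.0 and 154.8 CPM in control and 156.1 and 142.3 in Mps1sKO libraries, which overlapped. The defining markers *Adgre1* and *Csf1r* had log2 fold changes of −0.16 and −0.13. Of 10 endothelial markers 0 passed, with a median of 0.081 and sums from 201.2 to 221.5 CPM. For 8 Leydig cell markers the median was 0.20, with sums from 903.9 to 1008 CPM. Of these, 1 was higher (*Nr5a1*, 12.5%, against 3.09% of all tested loci). In all, 6 were above 0 and 2 below, namely *Star* at −0.66 (unadjusted p = 0.0597 from edgeR) and *Cyp17a1* at −0.17. For 6 peritubular myoid markers the median was −0.089 with 0 called and sums from 1140 to 1220 CPM. The 10 lymphocyte and neutrophil markers, of which 7 were tested, were sparse, with sums over all 10 of 9.10 and 9.15 CPM in control and 7.29 and 7.61 in Mps1sKO libraries. Of the 7 tested, 2 were lower at the relaxed cut-offs (28.6%, against 4.95% of all tested loci). With edgeR 0 of them had an adjusted p below 0.05. The neutrophil genes *S100a8* and *S100a9* had log2 fold changes of −2.33 and −2.21. The T cell gene *Cd3d* had at most 9 counts and the neutrophil gene *Ly6g* at most 1.

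**Figure D4:**
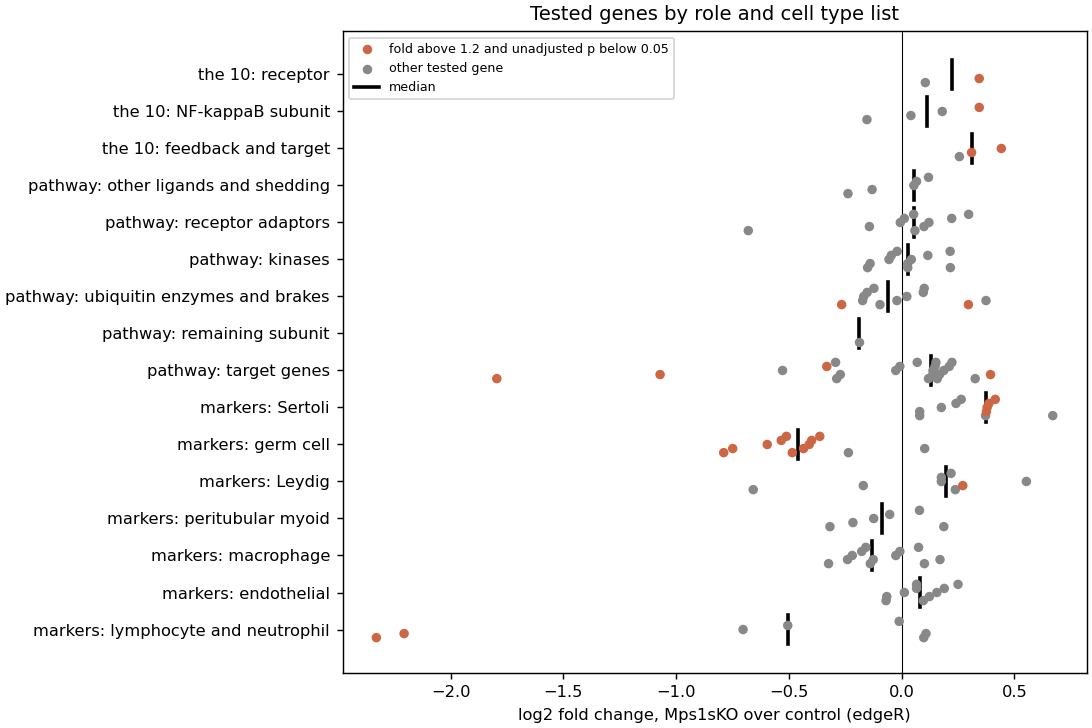
Log2 fold change (Mps1sKO over control, edgeR) of each tested gene, in rows by role in the pathway and by cell type marker list. Orange points passed a fold of 1.2 and an unadjusted p of 0.05, and black bars are medians. The rows of the pathway genes lie around 0, with medians from −0.187 to 0.128, while the germ cell markers have a median of −0.460 and the Sertoli markers one of 0.372.

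Some of the genes share exonic bases with others on the opposite strand, and the sources used here do not give the strand setting of the counting, so reads from such bases could not be separated. *Nfkb2* shares 531 bases (11.6%) with the noncoding gene *AC114539.1* and 299 (6.52%) with *Psd*. *Bcl3* shares 161 (6.51%) with *Gm16175*, and *Vcam1* shares 61 (0.688%) with *Gm43109*. The other 7 share none.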

How the data were processed

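RNA was measured in 4 libraries of whole P10 testes, grouped by the genotype in the labels. Libraries were made with a NEBNext Ultra kit and read as pairs on an Illumina NovaSeq platform. The submitters' processing notes name HISAT2 2.0.5, featureCounts, DESeq2 1.16.1 and mm10. The authors deposited raw counts per gene, FPKM values that they had normalized for gene length and library size, and the gene length in bases. Identifiers were those of GENCODE M21, and 55450 of 55536 annotated genes were matched on the reference chromosomes, all with the same coordinates. The other 284 loci have no annotated identifier.

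The test was that of edgeR 4.0.16 (R 4.3.3) on the counts of the whole table (filterByExpr, TMM, two-sided quasi-likelihood test on genotype), with Benjamini-Hochberg adjustment over 20561 loci. FPKM served only to compare levels between genes. The TMM factors were 1.005, 1.009, 0.9951 and 0.9902. The libraries of a group differed by more than counting error (chi-square per degree of freedom 9.39 in control and 12.9 in Mps1sKO). The cut-offs of 1.2-fold and an unadjusted p of 0.05 are the relaxed ones of the study. Alternatives were DESeq2 1.42.0, edgeR with those size factors or with library size alone, no filter, a minimum of 10 counts per library, limma-voom (limma 3.58.1), the replicate number as a block and each library left out. The scripts were tested on simulated data. The 10 genes, the pathway and marker lists and the cut-offs were chosen with earlier results of these data known. By plan the text names the 10 genes, pathway genes past the cut-offs, *Lta*, *Ltb*, defining markers and *Ttk*. Names outside this plan include other markers named with their values, *Il1b*, *Il6* and those stated to be chosen after values were seen. Promoter windows are from RefSeq on GRCm38.p6, and primers from the supplementary tables of the study. No gene was named for a pattern like that of another, since 4 libraries are too few for a correlation.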

Additional observations from a re-analysis of the deposited data

How the results depend on the processing

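With 2 libraries in each group, most calls turned on single libraries. Leaving out each library in turn, with the lone library assumed to vary like the others, gave from 2 to 6 of the 10 genes higher at the relaxed cut-offs, 0 lower and 0 with an adjusted p below 0.05. The 2 came without control replicate 2 and were *Tnf*, which then passed the filter, and *Vcam1*. The median log2 fold change of the tested genes lay between 0.207 and 0.311. The number of pathway genes went from 0 to 5 higher and from 0 to 7 lower, both 0 without control replicate 2, and their median from 0.001 to 0.036. The log2 fold change of *Tnfrsf1b* ranged from −0.378, without Mps1sKO replicate 1, to 0.478.

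Over the other alternatives the 10 genes gave 3 to 5 higher and 0 lower calls. *Bcl3* lost its call with library size only (0.421), with at least 10 counts in every library (0.436) and with the replicate block (0.440). The pathway genes gave 1 higher call with library size only, 1 with at least 10 counts in every library and 4 without a filter, and DESeq2 gave 1 lower call. With library size only, which leaves out the TMM factors, their median was 0.006. The tested genes of the 10 also had lower values in this setting, such as 0.158 against 0.180 for *Rela* and 0.234 against 0.256 for *Nfkbia*. The cause of the changed calls was not tested. With the replicate block, 3 of the 10 genes were higher, and the pathway genes gave 0 higher and 2 lower calls. The libraries share only a number, with a correlation of same-numbered deviations of −0.19 over 20561 loci. A block on the crossed pairing, chosen after seeing this, gave 1 of the 10 genes, *Nfkb1*, an adjusted p below 0.05, and 550 loci in all, against 6 without a block and 2 with the replicate block. The crossed block gave 5 higher pathway genes. Its pairing was picked from the same deviations that it takes out, so its calls carry no evidence of a difference. Depth limits *Tnf* most, whose control libraries had 1 and 2 counts.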

Other observations

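Among the pathway genes below the filter, *Ccl2*, which encodes a monocyte-attracting chemokine and was picked out after its values were seen, had 1 and 3 counts in control, against 7 and 8 in the Mps1sKO libraries. *Tnfaip3*, the gene of the NF-kappaB inhibitor A20, was also picked out in this way. It had 5.01 and 5.34 CPM in control and 7.16 and 6.27 in Mps1sKO libraries, with a log2 fold change of 0.37 that missed the cut-off (unadjusted p = 0.0604 from edgeR). The inflammatory cytokine genes *Il1b* and *Il6* had from 6 to 10 and from 0 to 2 counts in a library.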
